A study of Mus musculus with 6 samples.

Results

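Interferon-stimulated genes encode the antiviral machinery that a cell switches on after it senses interferon, and 37 such genes were followed here in the injured mouse carotid artery. They were chosen by symbol as widely known members of the antiviral response, and each was read from the probe sets that the array annotation gives to that gene alone. Of the 37, 34 were measured by at least 1 such probe set, out of 18193 genes measured in this way on the array. The probe set that carries Isg15 names several genes, and no probe set bears the symbol Ifi44 or Oas1g, so these 3 genes have no value here. Where a gene has more than 1 probe set, the one with the highest mean over all arrays stands for it, and the others are given beside it where they differ in sign.

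Type I interferons bind the receptor formed by Ifnar1 and Ifnar2, whose kinases phosphorylate STAT2. This joins IRF9 in the complex ISGF3, which binds the interferon-stimulated response element (ISRE) in the promoters of antiviral genes. Interferon-gamma acts through another receptor and through gamma-activated sites (GAS) in DNA, and it induces guanylate-binding proteins and immunity-related GTPases most strongly. IRF9 is therefore the DNA-binding part of the complex that many of these genes answer to.

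The study set carotid arteries of SMC-IRF9-TG mice beside those of NTG (non-transgenic) mice, all of C57BL/6 strain in the labels and C57BL/6J in the paper, and all collected 14 days after wire injury of the artery, at 10 to 12 weeks of age. The SMC-IRF9-TG mice carry full-length mouse IRF9 cDNA with an HA tag under the mouse SM22α promoter, which directs the transgene to smooth muscle, so that endothelium, fibroblasts and blood cells are not its target. The study describes several transgenic lines and chose the one with the highest IRF9 level for its later phenotypic work. It does not name the line of the arrays themselves. Each genotype had 3 pools of 3 to 5 vessels, every pool gave 400 ng of total RNA to 1 Affymetrix array, and the labels do not say which animals went into a pool. A p-value here weighs a difference against the spread between pools, part of which may be technical. Values are log2 levels that the authors made with RMA, so a difference of 1 is a 2-fold difference, and levels of different genes are not compared because each probe set has its own brightness.

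The ISRE is visible in the sequence of many of these genes. RefSeq promoter windows of GRCm38.p6, from 250 bases before to 50 after the start of transcription, were held for 29 of the 37 genes. The ISRE core was searched as GAAANNGAAA, which reads TTTCNNTTTC on the other strand, and it stood in the windows of 15 of the 29 genes (51.7%) against 3.99% of 27025 genes with a window. The GAS core TTCNNNGAA, which reads the same on both strands, stood in 6 of 29 (20.7%) against 9.55%, and a GAS core overlapped an ISRE core in Bst2 alone. These matches describe letters in a window and are not evidence of binding. The stretches from 7 genes are shown because they carry the element that IRF9 is known to bind and because the measured differences of these genes lie on both sides of 0. Capitals mark the ISRE core, with overlapping or neighbouring cores in one run, and 10 bases are given on each side.
Ifit1 (chr19:34640775-34640823, plus strand): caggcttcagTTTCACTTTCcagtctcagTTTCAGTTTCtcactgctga
Ifit3 (chr19:34583363-34583426, plus strand): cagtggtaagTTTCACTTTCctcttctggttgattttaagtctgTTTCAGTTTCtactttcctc
Oas1a (chr5:120907520-120907555, minus strand): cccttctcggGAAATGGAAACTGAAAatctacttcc
Oas3 (chr5:120777715-120777744, minus strand): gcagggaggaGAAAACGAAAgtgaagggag
Gbp3 (chr3:142559989-142560024, plus strand): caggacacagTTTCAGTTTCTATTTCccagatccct
Irgm1 (chr11:48871425-48871460, minus strand): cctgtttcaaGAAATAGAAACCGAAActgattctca
Igtp (chr11:58199512-58199541, plus strand): tctaggaactGAAACTGAAAgctgttcggg

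In Ifit1, Ifit3, Oas1a, Gbp3 and Irgm1 there were 2 cores, and in Oas3 and Igtp there was 1. The first core began 104 bases before the start in Ifit1 and 156 in Ifit3, but 75 in Oas3, 45 in Gbp3, 34 in Igtp, 30 in Irgm1 and 20 in Oas1a. The window of Oas1g held the same 36 bases as that of Oas1a.

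The state of the arrays bears on every value that follows. Xist, the RNA of the inactive X chromosome, read 9.94 in NTG pool 1, 9.50 in NTG pool 2 and between 2.94 and 4.08 on the other 4 arrays, although the study's methods describe male mice. In NTG pool 2 the 3′ probe set of Actb exceeded its 5′ probe set by 7.09, against 1.56 to 3.04 on the other arrays. The poly-A spike-in controls averaged 4.97, 4.54 and 9.01 in SMC-IRF9-TG pools 1, 2 and 3, while NTG pools ranged from 7.39 to 11.7. The Irf9 probe set read 4.75, 5.43 and 5.36 in NTG arteries and 5.46, 5.41 and 5.58 in SMC-IRF9-TG arteries, a difference of 0.30 (adjusted p = 0.436, limma). Where its probes lie relative to the transgene is unknown here, so Irf9 does not check the labels.

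None of the 34 measured interferon-stimulated genes passed the test between genotypes. By limma, adjusted by Benjamini-Hochberg across 45037 probe sets, 0 of 34 were higher and 0 were lower in SMC-IRF9-TG arteries, where 3.62% of the 18193 genes passed, 3.11% higher and 0.511% lower. The t-test that the study's methods name also called 0 after adjustment. It called 0 higher and 1 lower of all 45037 probe sets, so its 0 does not set the 34 apart. At an unadjusted p under 0.05, limma gave 5 of the 34 (14.7%, against 24.7% of all genes), 4 higher (11.8%, against 14.9%) and 1 lower (2.94%, against 9.81%), and the t-test gave 2. Adjusted p ranged from 0.0597 for Lgals3bp to 0.957 for Parp9.

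The differences nonetheless leaned upward. They were positive in 22 and negative in 12 of the 34, or 64.7% positive against 46.3% of all genes, with a median of 0.28 log2 units against -0.05 over all genes. That comparison is not matched for level, and the 34 stood at a median level percentile of 75. The median difference was -0.13 over all probe sets but 0.13 over those not below the median level. After quantile normalization of the deposited values 20 of the 34 differences were positive and their median was 0.07. As deposited, most of the 34 differences were small, and 26 were under 0.5 in size. Differences over 1 were found in 5 genes (14.7%, against 7.93% of all genes), namely Lgals3bp, Irgm1, Ifi27l2a, Ifit1 and Oas1a, all with the higher mean in SMC-IRF9-TG arteries. Every SMC-IRF9-TG pool exceeded every NTG pool in 4 genes (11.8%, against 16.1% of all genes), and every one lay below them in 1 gene (2.94%, against 16.1%). In the other 29 genes the pools of the 2 genotypes overlapped.

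**Figure D1:**
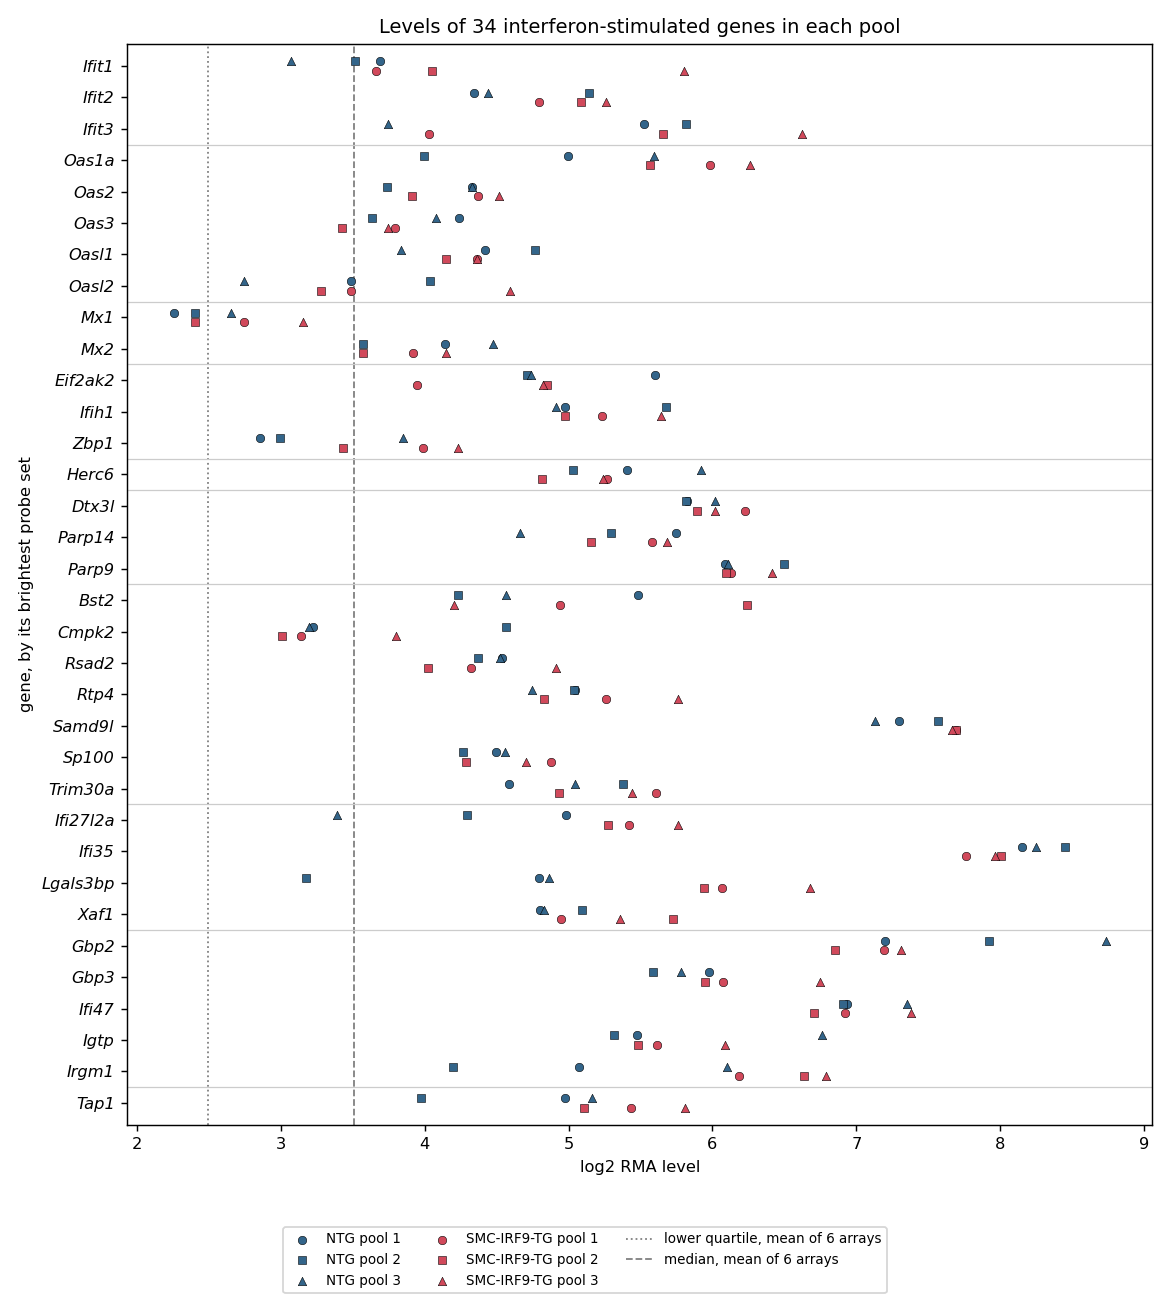
Log2 RMA level (x axis) of each measured gene (y axis, grouped by role with grey lines) in the 6 pools, NTG in blue and SMC-IRF9-TG in red, with the mean lower quartile and median of all probe sets as vertical lines. The colours separate fully in Ifi27l2a, Lgals3bp, Irgm1 and Samd9l, where the red points lie to the right, and in Ifi35, where they lie to the left.

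Of the 3 IFIT genes, Ifit1 encodes a protein that grips foreign RNA by its end and keeps it from being translated. Ifit3 and Ifit1 had the largest SDs of the 34 within the SMC-IRF9-TG group. Ifit1 read 3.69, 3.52 and 3.07 in NTG arteries and 3.66, 4.05 and 5.80 in SMC-IRF9-TG arteries. Its difference of 1.08 (95% interval -0.06 to 2.22, adjusted p = 0.242) came with an SD of 1.14 among the SMC-IRF9-TG pools, of which pool 3 stood far above the rest. Without that pool the difference was 0.43.

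Ifit3 read 5.53, 5.82 and 3.75 in NTG arteries and 4.03, 5.65 and 6.62 in SMC-IRF9-TG arteries. Either genotype thus held 1 pool far below its others, and the difference of 0.40 had an interval from -1.20 to 2.01, the only one among the 34 that passed 1 on each side. Leaving out 1 pool at a time moved it between -0.24 and 1.11. Ifit2, the neighbour of Ifit3 on chromosome 19, read 4.34, 5.14 and 4.44 against 4.79, 5.08 and 5.26, a difference of 0.40 with less spread.

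The oligoadenylate synthetases sense double-stranded RNA and make the messenger that activates RNase L. Oas1a read 5.00, 3.99 and 5.60 in NTG arteries and 5.98, 5.57 and 6.26 in SMC-IRF9-TG arteries, a difference of 1.08. Limma gave it an SE of 0.39, an interval of 0.19 to 1.96 and an adjusted p of 0.167. Limma's SE and interval draw on the spread of all probe sets as well as on that of the gene's own pools. The groups met only where NTG pool 3 lay just above SMC-IRF9-TG pool 2. Without NTG pool 2 the difference was 0.64 (adjusted p = 0.201, limma). Oas2 and Oas3, which lie side by side on chromosome 5, had differences of 0.13 and -0.33, and Oas3 read 4.24, 3.63 and 4.08 against 3.80, 3.43 and 3.74. Genes of one enzyme family thus had differences on both sides of 0, and none of them passed.

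Oasl1, which holds back translation of Irf7 in mouse cells, and Oasl2, its neighbour with ubiquitin-like domains, had differences of -0.05 and 0.36. Oasl2 read 3.49, 4.04 and 2.75 against 3.49, 3.28 and 4.59, so that its lowest value was in NTG pool 3 and its highest in SMC-IRF9-TG pool 3. The same pools were the lowest and the highest in Ifit1 and Ifit3.

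Mx1 and Mx2 belong to a family of dynamin-like GTPases that trap viral nucleocapsids. RNA levels do not show whether this mouse strain makes a working protein from either. Mx1 read 2.26, 2.41 and 2.65 in NTG arteries and 2.75, 2.41 and 3.15 in SMC-IRF9-TG arteries, and its NTG mean of 2.44 lay under the lower quartile of the arrays. The lowest such values may not lie above background, which could not be checked without scanner files. Mx2 read 4.14, 3.57 and 4.48 against 3.92, 3.58 and 4.15, a difference of -0.18 with an interval from -0.81 to 0.45.

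Among the sensors, Ifih1 (MDA5, which detects long double-stranded RNA) had a difference of 0.09, with an interval from -0.53 to 0.72 that leaves out a 2-fold difference either way. Eif2ak2 (PKR, the kinase that halts translation) read 5.60, 4.71 and 4.74 in NTG arteries and 3.95, 4.85 and 4.82 in SMC-IRF9-TG arteries. Its difference of -0.48 rested on NTG pool 1 and SMC-IRF9-TG pool 1, since the other 4 values lay between 4.71 and 4.85. Zbp1, the sensor of Z-form nucleic acids, read 2.86, 3.00 and 3.85 against 3.99, 3.43 and 4.24 by its brightest probe set, a difference of 0.65. Its other probe set gave -0.52, so the direction for Zbp1 depends on the probe set.

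Herc6, the main ligase that attaches ISG15 to proteins in the mouse, read 5.41, 5.03 and 5.92 against 5.27, 4.81 and 5.24, a difference of -0.34. Its 4 probe sets ranged from -0.34 to 0.68. The ADP-ribosylation genes Parp14, Dtx3l and Parp9 follow one another on chromosome 16, and Parp9 and Dtx3l encode partners in one complex. Their differences were 0.24, 0.16 and -0.02. Their intervals ran from -0.27 to 0.60 for Dtx3l and from -0.49 to 0.45 for Parp9, and the other Dtx3l probe set gave -0.18.

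**Figure D2:**
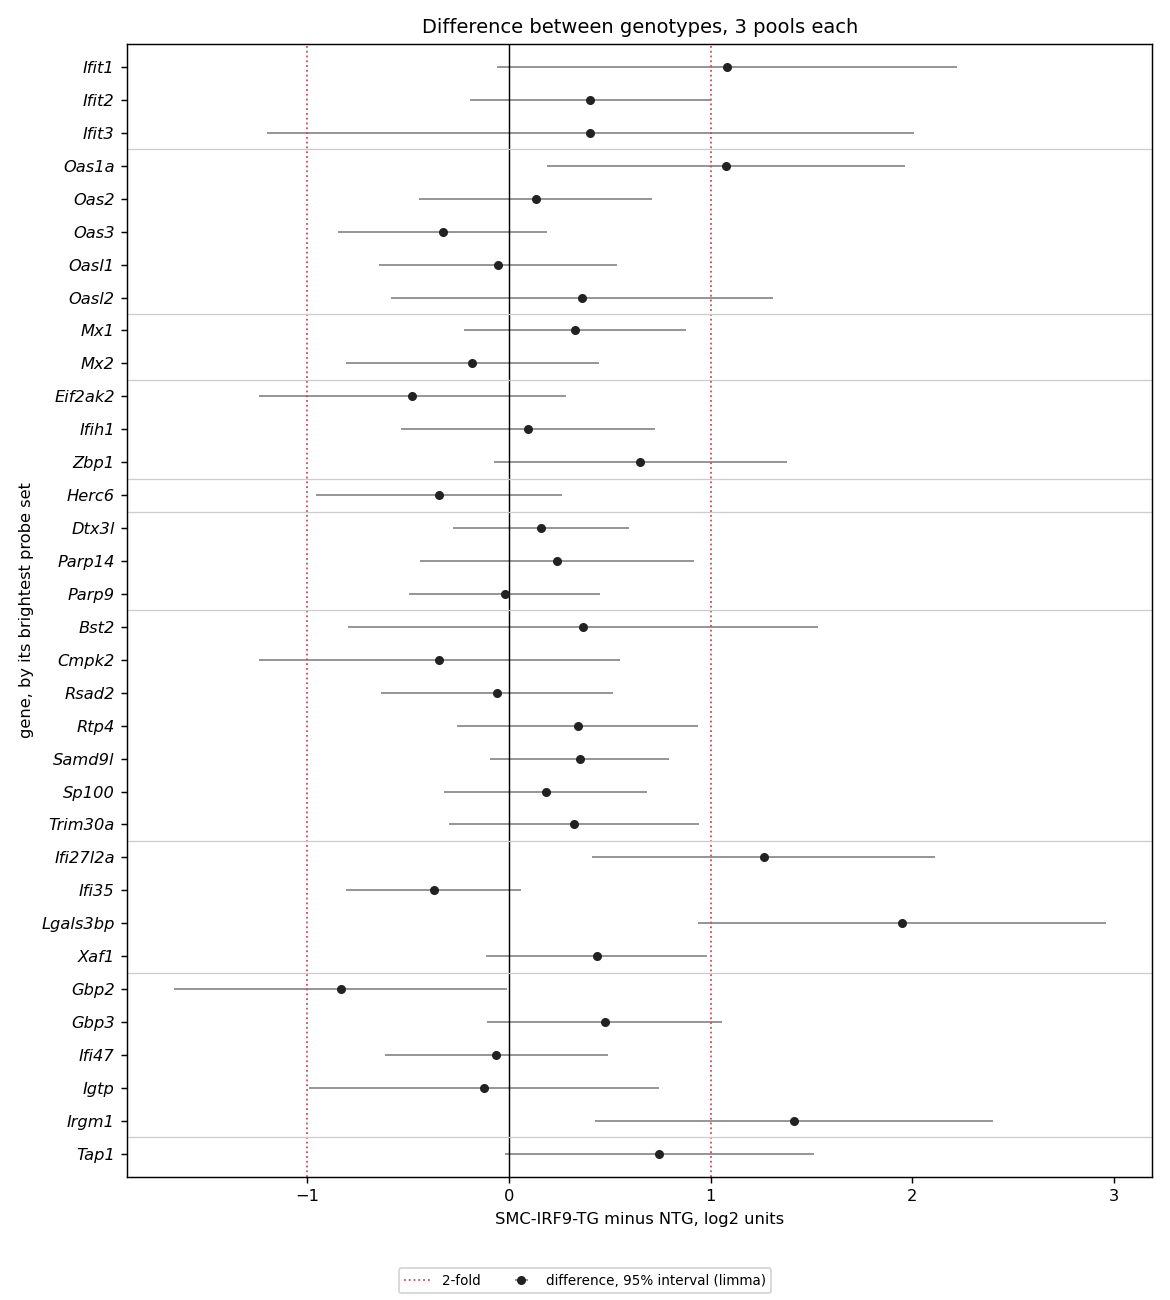
SMC-IRF9-TG minus NTG difference of each measured gene in log2 units (x axis), with its 95% interval from limma over 3 pools a genotype; dotted red lines mark 2-fold. The intervals of Oas1a, Ifi27l2a, Lgals3bp and Irgm1 lie above 0 and that of Gbp2 lies below it, and 19 of the 34 lie within the dotted lines.

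Of the other antiviral effectors, Samd9l, a restrictor of poxviruses, was the most even. It read 7.30, 7.57 and 7.13 in NTG arteries and 7.69, 7.69 and 7.67 in SMC-IRF9-TG arteries. All SMC-IRF9-TG values thus lay above all NTG values, by a mean difference of 0.35 with an interval from -0.09 to 0.79 (adjusted p = 0.304, limma). The exact permutation p was 0.1, the smallest that 3 against 3 pools allow. After quantile normalization the difference was 0.06.

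Rsad2 (viperin, which makes a chain-terminating nucleotide) and Cmpk2 (the mitochondrial kinase that feeds it) are adjacent on chromosome 12. Rsad2 read 4.54, 4.37 and 4.53 in NTG arteries and 4.32, 4.02 and 4.92 in SMC-IRF9-TG arteries. Cmpk2 read 3.22, 4.56 and 3.20 against 3.14, 3.01 and 3.80. The means differed by -0.06 and -0.35, and all 5 probe sets of this pair gave negative differences, down to -0.70. The median over all probe sets of the array was itself -0.13. In the dimmest Rsad2 probe set the means of 2.47 (NTG) and 2.19 (SMC-IRF9-TG) lay under the lower quartile of the arrays.

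Bst2 (tetherin, which holds budding virus at the cell surface) read 5.48, 4.23 and 4.56 in NTG arteries and 4.94, 6.24 and 4.21 in SMC-IRF9-TG arteries. It was the only measured gene besides Xaf1 whose highest value was in SMC-IRF9-TG pool 2, and it was the only one whose lowest was in SMC-IRF9-TG pool 3. Trim30a, a brake on Toll-like receptor signalling, and Sp100, a component of nuclear bodies, had differences of 0.32 and 0.18, and the other Sp100 probe set gave -0.10. Rtp4, a transmembrane antiviral protein, gave 0.34 by its brightest probe set and -0.74 by the other, whose SMC-IRF9-TG values all lay below its NTG values. The SMC-IRF9-TG mean of that other probe set was 2.38, where the lower quartiles of the SMC-IRF9-TG arrays were 2.33 to 2.41.

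The largest difference of the 34 was in Lgals3bp, which encodes a secreted glycoprotein that binds galectin-3. It read 4.79, 3.18 and 4.87 in NTG arteries and 6.07, 5.94 and 6.68 in SMC-IRF9-TG arteries. The groups did not overlap, and the difference was 1.95, or 3.86-fold (limma's SE 0.44, interval 0.94 to 2.96, adjusted p = 0.0597). The SD was 0.95 among the NTG values and 0.39 among the SMC-IRF9-TG values. Without NTG pool 2, which held the lowest value and the steep 3′ to 5′ ratio of Actb, the difference was 1.40 and passed, with an adjusted p of 0.0367 (limma). No ISRE core was in its promoter window.

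Ifi27l2a, a small hydrophobic protein of mitochondria, read 4.98, 4.30 and 3.39 in NTG arteries and 5.42, 5.28 and 5.76 in SMC-IRF9-TG arteries, with no overlap. Its difference was 1.26 (limma's SE 0.37, interval 0.41 to 2.11, adjusted p = 0.114). The SD was 0.80 among the NTG values and 0.25 among the SMC-IRF9-TG values. Without NTG pool 3, the lowest, the difference was 0.85 (adjusted p = 0.124). With NTG pools 1 and 2, which had high Xist, left out, the difference was 2.10 and passed, with an adjusted p of 0.0333 (limma, in which the lone pool is assumed to vary like the others).

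Ifi35, which pairs with Nmi, lay on the other side. It read 8.15, 8.45 and 8.25 in NTG arteries and 7.76, 8.01 and 7.96 in SMC-IRF9-TG arteries. The groups did not overlap, with a difference of -0.37 (interval -0.81 to 0.06, adjusted p = 0.276). Its other probe sets gave 0.22 and -0.08, and their groups overlapped. Xaf1, an antagonist of the apoptosis inhibitor XIAP, likewise had differences of 0.44 and -0.54 from its 2 probe sets. In the second of these the SMC-IRF9-TG mean of 2.19 lay under the lower quartile of the arrays.

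The genes that answer most to interferon-gamma did not share a direction. Irgm1, a regulator of the immunity-related GTPases and of autophagy, read 5.07, 4.20 and 6.10 in NTG arteries and 6.18, 6.64 and 6.79 in SMC-IRF9-TG arteries. The groups met without overlapping, and the difference was 1.41 (limma's SE 0.43, interval 0.43 to 2.40, adjusted p = 0.123). Without NTG pool 3 it was 1.90 and passed, with an adjusted p of 0.0314 (limma). Without NTG pool 2 it was 0.95 (adjusted p = 0.142), and with NTG pools 1 and 2 left out it was 0.44 (adjusted p = 0.343).

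Igtp, a GTPase of the same regulatory class, read 5.48, 5.32 and 6.76 in NTG arteries and 5.62, 5.48 and 6.09 in SMC-IRF9-TG arteries, a difference of -0.12. Ifi47, an effector of the family, had a difference of -0.06 with an interval from -0.61 to 0.49. Igtp and Irgm1 thus shared NTG pool 3 as the highest and NTG pool 2 as the lowest NTG value, yet had differences of opposite sign.

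Gbp2, a guanylate-binding protein that attacks the vacuoles of intracellular pathogens, had the most negative difference. It read 7.20, 7.92 and 8.73 in NTG arteries and 7.19, 6.85 and 7.31 in SMC-IRF9-TG arteries, a difference of -0.83 (interval -1.66 to -0.01, adjusted p = 0.221). NTG pool 1 lay within the SMC-IRF9-TG values, and NTG pool 3 lay far above them. With NTG pools 1 and 2 left out the difference was -1.62 and passed, with an adjusted p of 0.0447 (limma), while without NTG pool 3 it was -0.44 (adjusted p = 0.346). The other Gbp2 probe set gave -0.17. Gbp3, which lies close by on chromosome 3, had a difference of 0.47.

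Tap1, which carries peptides to class I molecules, read 4.98, 3.98 and 5.16 in NTG arteries and 5.43, 5.11 and 5.81 in SMC-IRF9-TG arteries. The difference was 0.75 with an interval from -0.02 to 1.51, and its 3 dimmer probe sets gave negative differences of -0.07 to -0.43. The mean of its probe sets differed by -0.04, and without NTG pool 2 the difference of the brightest was 0.38 (adjusted p = 0.342, limma). Over all 34 genes, 14 had more than 1 probe set, and of their 21 other probe sets 17 gave negative and 4 positive differences. The median difference over all probe sets of the array was -0.13. In 8 of the 14 genes the probe sets differed in sign. By their brightest probe sets 8 of the 14 were positive and 6 negative, with a median of 0.17, and by their next brightest the median was -0.17. Of the 20 genes with 1 probe set, 14 were positive and 6 negative.

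Differences between pools of one genotype were shared by many of these genes. The highest of the 6 values was in SMC-IRF9-TG pool 3 for 16 of the 34 genes, where this pool was highest in 8.47% of all genes. Within the SMC-IRF9-TG group it was highest in 23 of 34 (67.6%) against 32% of all genes, and pool 2 was lowest in 25 of 34 against 43.7% of all genes. The median level over the 34 genes was 5.66 in SMC-IRF9-TG pool 3, 5.10 and 5.25 in the other pools of that group, and 4.74 to 4.98 in the NTG pools. Because a pool's extremes are shared by many genes, the genes are not independent readings of the genotype.

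Irf7 and Usp18, which act back on the response, were highest in the same pool. Irf7, the factor that amplifies interferon production, read 3.87, 3.92 and 4.14 in NTG arteries and 3.95, 3.67 and 4.99 in SMC-IRF9-TG arteries. Usp18, which removes ISG15 and quenches the receptor, read 2.64, 3.80 and 3.01 against 3.39, 3.34 and 4.59. SMC-IRF9-TG pool 3 was the array of its group with high poly-A controls, and the part of this in the values was not tested.

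**Figure D3:**
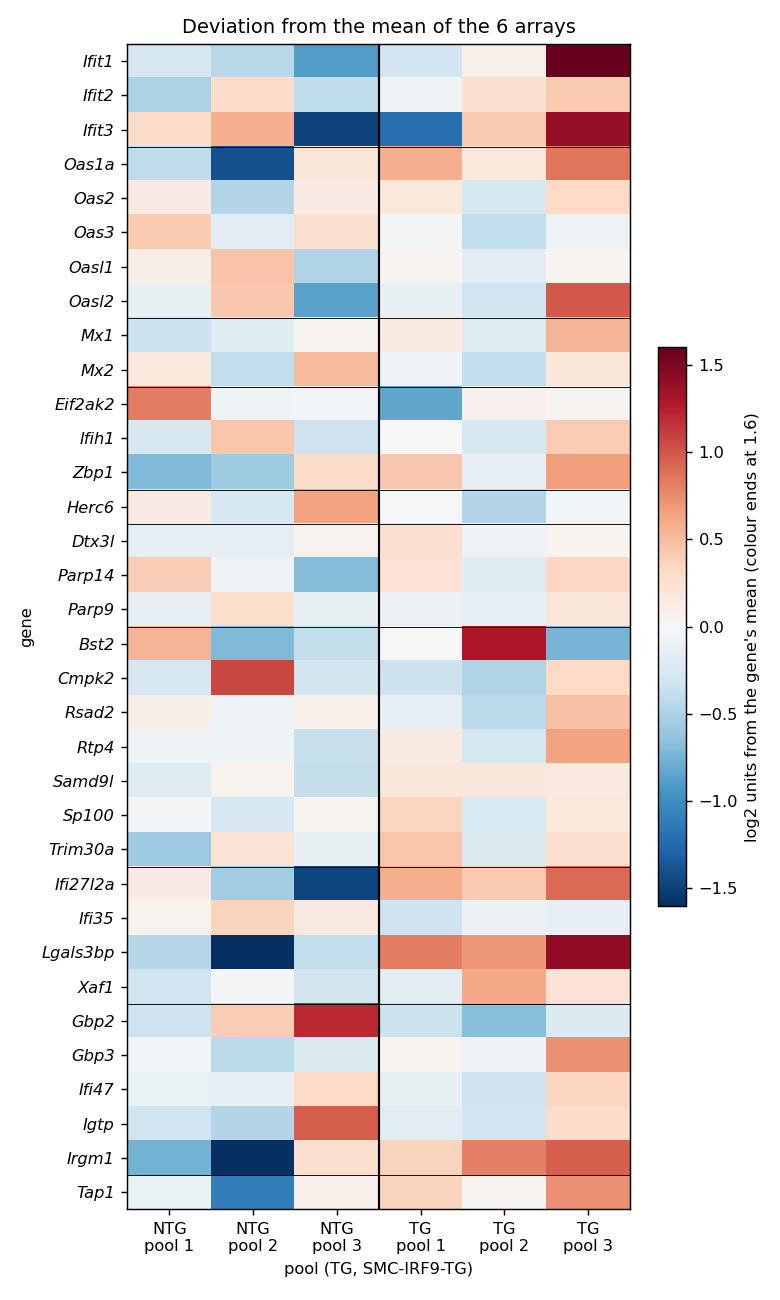
Level of each measured gene (rows, grouped by role) in each pool (columns) as the deviation from its mean over the 6 arrays in log2 units, red above and blue below. The column of SMC-IRF9-TG pool 3 is the reddest, with the highest value in 16 of 34 rows, and NTG pool 3 is blue in Ifit1, Ifit3, Oasl2 and Ifi27l2a but red in Gbp2, Igtp and Herc6.

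NTG pool 3 held the lowest NTG value in 10 genes (29.4%, against 28.9% of all genes), among them Ifit1, Ifit3, Oasl1, Oasl2 and Ifi27l2a, and the highest in 14 (41.2%, against 37.2%), among them Gbp2, Igtp, Irgm1, Ifi47, Zbp1 and Herc6. Within the NTG group the SD of a gene had a median of 0.44 over the 34 genes, against 0.34 over all genes, and within the SMC-IRF9-TG group 0.34 against 0.19. In 21 of the 34 the NTG pools spread more than the SMC-IRF9-TG pools.

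That spread sets what these arrays can and cannot show. The 95% interval of a difference reached a median of 0.62 log2 units to either side, and in 19 of 34 genes (55.9%, against 58.4% of all genes) it lay within 2-fold either way. In 12 genes the upper bound passed 2-fold, and in 4 the lower bound did. For 29 of the 34 a difference of 4-fold or more toward SMC-IRF9-TG lay outside the interval.

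The differences of genes with an ISRE core overlapped those of genes without one. Among the 13 measured genes with a core, 8 differences were positive, with a median of 0.32 and a range from -0.83 in Gbp2 to 1.41 in Irgm1. Among the 13 with a window but no core, 8 were positive, with a median of 0.18 and a range up to 1.95 in Lgals3bp. None of either passed the test. Of the 7 genes whose sequences are shown, Ifit1, Oas1a and Irgm1 had differences over 1, Ifit3 and Gbp3 had 0.40 and 0.47, and Oas3 and Igtp had -0.33 and -0.12. Over the whole array, 5.92% of 524 genes with a core passed in either direction. The share was 3.53% of the 14452 genes with a promoter window, which include them. Of the 524, 260 had positive differences, with a median of -0.007, against 6807 and -0.04 for the 14452.

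Beyond the antiviral effectors, 68 of 78 other genes of interferon sensing, signalling and antigen processing were measured. Of these, 3 rose (4.41%, against 3.11% of all genes) and 0 fell by limma. At an unadjusted p under 0.05, 17 were higher (25%, against 14.9%) and 1 was lower (1.47%, against 9.81%), and the methods' t-test called 0 after adjustment and 19 before it. The list had 45 positive differences (66.2%, against 46.3%, again not matched for level) and a median of 0.27. The genes that rose encode receptor chains of both interferon types, and a germ granule protein with antiviral activity.

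Ifnar2, a chain of the type I receptor, read 5.36, 5.52 and 5.96 in NTG arteries and 6.91, 7.71 and 6.72 in SMC-IRF9-TG arteries, a rise of 1.49 (adjusted p = 0.0387, limma). Ifngr1, the ligand-binding chain of the interferon-gamma receptor, read 6.84 ± 0.16 against 7.90 ± 0.17 (SD over 3 pools each), with no overlap, a rise of 1.06 (adjusted p = 0.0308). Tdrd7, the Tudor protein, read 5.23, 5.39 and 5.20 against 6.71, 6.34 and 6.34, a rise of 1.19 (adjusted p = 0.0198). Stat2, the partner of IRF9, read 3.33, 3.04 and 3.57 against 3.29, 3.24 and 3.65, a difference of 0.08 with an interval from -0.42 to 0.59. The counts in this list moved with single pools, as did the share of all probe sets that passed, which was 2.75% with every pool in. In this list 0 passed without NTG pool 1, SMC-IRF9-TG pool 1 or SMC-IRF9-TG pool 2 (1.29%, 0.89% and 0.711% of all probe sets). The count was 1 without SMC-IRF9-TG pool 3 (1.01%) and 6 without NTG pool 3 (4.11%).

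The arteries also differed in their myeloid RNA. Of 15 measured macrophage markers 13 rose by limma (86.7%, against 3.11% of all genes), with a median difference of 3.68. The t-test called 0 of them after adjustment and 15 before it. Their summed level on a log2 scale ranged from 7.92 to 8.95 over NTG arteries and from 12.2 to 12.8 over SMC-IRF9-TG arteries. Tyrobp, a signalling adaptor of myeloid cells, read 3.08, 2.62 and 4.21 against 8.81, 8.69 and 8.68, and Lyz2, the macrophage lysozyme, read 4.87, 4.76 and 6.58 against 10.92, 10.28 and 10.15. No marker reads 0 on this scale. Macrophages express many interferon-stimulated genes, and the part of these cells in the values was not tested. In whole-artery RNA, fewer cells of a type and less RNA per cell cannot be told apart.

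Within the SMC-IRF9-TG group, the summed macrophage markers were 12.8, 12.2 and 12.4 in pools 1, 2 and 3, highest in pool 1 and lowest in pool 2. Most of the antiviral genes were highest in pool 3 and lowest in pool 2 of this group. Whether the macrophage sum and the antiviral genes varied together over the pools was not tested. The neutrophil marker S100a8 read 2.56 to 4.07 over NTG arteries and 8.83, 9.99 and 4.34 in turn over SMC-IRF9-TG arteries, and its list had 0 of 5 genes past limma's adjusted threshold, 3 at an unadjusted p under 0.05 and 0 by the t-test either way. Smooth muscle, the labelled target of the transgene, was plainly present. Its 9 markers had a median difference of 0.13, with 0 passing by limma or the t-test, 0 at an unadjusted p under 0.05, and Acta2 at 13.28 to 13.63 on all arrays. Fibroblast markers rose in 5 of 7, endothelial markers in 1 of 9 and T cell markers in 0 of 6 by limma. The t-test gave 5 fibroblast and 1 endothelial marker before adjustment and 0 of either after it. Among T cell markers 2 were higher at an unadjusted p under 0.05 by limma, and the t-test gave 2 before and 0 after adjustment.

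**Figure D4:**
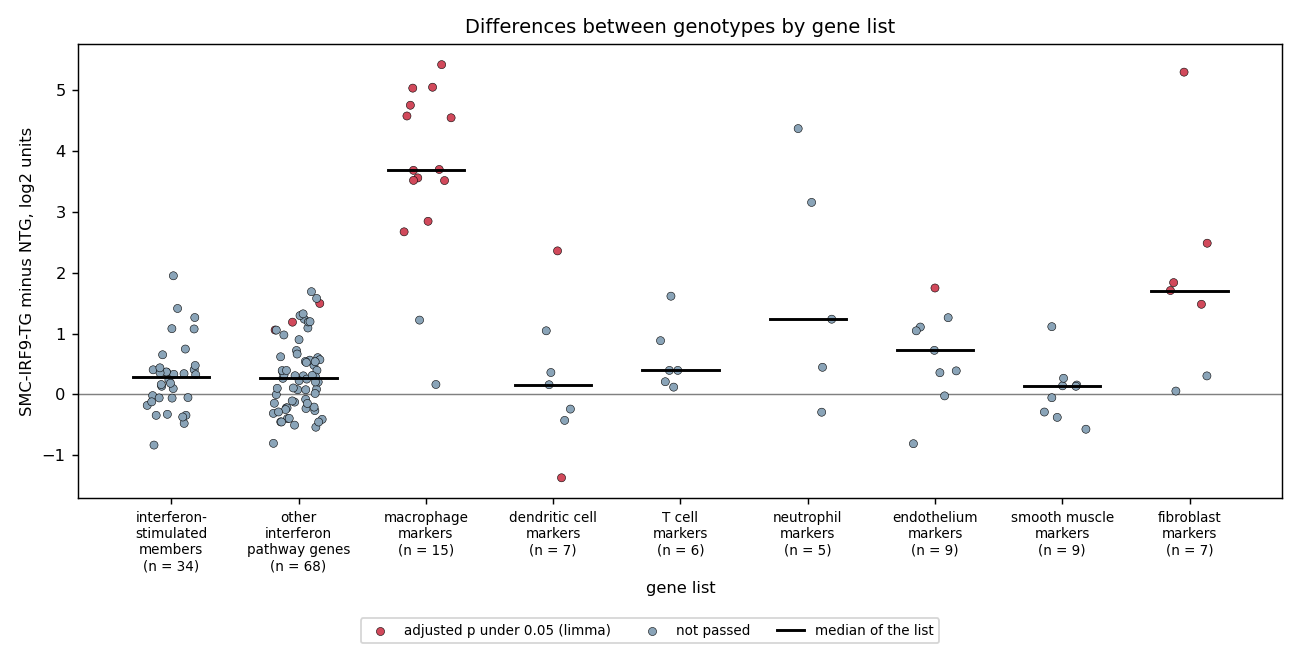
SMC-IRF9-TG minus NTG difference in log2 units (y axis) of every measured gene of each list (x axis), red where limma's adjusted p was under 0.05, with the median of each list as a bar. The 34 interferon-stimulated genes and the 68 other pathway genes have medians of 0.28 and 0.27, while the 15 macrophage markers have a median of 3.68.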

How the data were processed

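Each artery pool was hybridized to 1 Affymetrix array. The authors' values, deposited on the log2 scale, come from RMA in Affymetrix Expression Console per the submitters' processing notes, with no version named. RMA removes background, equalizes the distributions of the arrays and combines the probes of a set and so reduces shifts common to all genes, although the medians of the deposited arrays still ranged from 3.42 to 3.66. The number of arrays limits the precision. No further normalization was applied.

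Of 45101 probe sets, the test covered the 45037 that are no Affymetrix control (64 are), with no filter. The annotation gives 34945 probe sets 1 gene, 932 several and 9160 none, and genes were named from the first kind only. The test of SMC-IRF9-TG against NTG was limma 3.58.1 in R 4.3.3 (lmFit, then eBayes), 2-sided, without a block, adjusted across all tested probe sets by Benjamini-Hochberg and read at a threshold of 0.05. The methods give a t-test and no array method, so the t-test (equal variance) was an alternative. Tables and figures were made with pandas 2.3.3, matplotlib 3.10.9, numpy 2.4.6 and scipy 1.17.1 in Python 3.11.15. The fit was tested on simulated data.

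The genes and lists were chosen with earlier results of these data known, so the lists are described by counts and medians and were not tested as sets. All 37 genes were named, and of the other pathway genes Irf9, Stat2, Irf7, Usp18 and those that passed, up to 6 by size. From the cell type lists, up to 4 of highest level and Tyrobp, Lyz2, Cd68 and C1qb could be named. Ifnar1 and Nmi are named as background. Same-numbered pools of the 2 genotypes did not deviate together (correlations of -0.15, -0.0006 and 0.03), so replicate numbers were not taken as pairs. Promoter motifs were searched in RefSeq windows of GRCm38.p6.

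The alternatives were median centring, quantile normalization, a filter on probe sets under the median level, array weights, a trended robust prior, the t-test, the replicate block, other probe sets or their mean, other thresholds, each pool left out, and leaving out the 2 NTG pools with high Xist or the 2 SMC-IRF9-TG pools with low poly-A controls.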

Additional observations from a re-analysis of the deposited data

How the results depend on the processing

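The number of the 34 interferon-stimulated genes that passed as higher was 0, where 2.75% of all probe sets passed in either direction. In the settings of the next sentence Lgals3bp alone passed, with adjusted p from 0.0353 to 0.0391 (limma). The number became 1 with the replicate block (1.62% of probe sets), centring (3.57%), array weights (3.23%) or the filter on dim probe sets (6.51%, 32 genes tested). It was also 1 with both Xist-high NTG pools left out (Ifi27l2a) and at an adjusted p under 0.1. Leaving out 1 pool at a time gave 0 to 1 (Lgals3bp without NTG pool 2, Irgm1 without NTG pool 3). The number lower was 1 (Gbp2) with both Xist-high NTG pools left out and 0 in all other settings run. Quantile normalization, the variance prior, the t-test, the mean of a gene's probe sets and leaving out both SMC-IRF9-TG pools with low poly-A controls called none of the 34. The median difference of 0.28 was 0.07 with quantile normalization, 0.06 for the mean of a gene's probe sets, 0.37 with centring, 0.44 without both SMC-IRF9-TG pools with low poly-A controls and 0.12 to 0.30 with 1 pool left out. It was -0.17 over the next brightest probe sets of 14 genes, whose brightest had 0.17.

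Of the 68 other pathway genes 3 rose, where 2.75% of all probe sets passed in either direction. The genes that rose became 1 with the replicate block (1.62% of probe sets) and 7 with centring (3.57%). With the filter on dim probe sets (6.51%) they were 6 of the 58 genes left. They numbered 9 at an adjusted p under 0.1, and 0 with quantile normalization (1.55%), the t-test (0.00222%) or an adjusted p under 0.01. With 1 pool left out they numbered 0 to 6, and those lower 0 to 1, where 0.711% to 4.11% of all probe sets passed. Where all but 1 pool of a genotype are left out, the lone pool is assumed to vary like the others. The median of all probe sets was shifted by -0.13 as deposited, -0.03 after centring, -0.05 after quantile normalization and 0.13 with the filter. None of the 34 interferon-stimulated genes passed in the main setting, so none had a passing value to reverse. Among them 57 differences of 21 genes changed sign in some setting. The causes were not tested. With the replicate block the calls over all 45037 probe sets went from 1069 higher and 168 lower to 659 and 71.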
